A study of Gossypium hirsutum with 2 samples.

Results

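Of the 2111 cotton genes with a promoter peak in the longer of the 2 deposited peak lists, 56 were described as acting in the cell wall, the cytoskeleton or vesicle traffic. They were chosen by words in the description of each gene's best protein hit (such as cellulose, pectin, tubulin, syntaxin or ras-related) among genes to which the authors gave no transcription factor family. Descriptions with kinase, receptor, chloroplast, mitochondri or ubiquitin were to be left out, but no gene with a chosen word carried one. Each gene had 1 peak. By word, 29 genes fell in a cell wall group, 6 in a microtubule group, 6 in an actin group and 15 in a vesicle traffic group. In 2 of the actin group the letters "formin" lie inside another word: GH_A01G1543 is a lignin-forming anionic peroxidase and GH_D10G0376 a trehalose-phosphate synthase [UDP-forming]. They stayed in the counts and are named as such. Words with no gene were xylan, pectate, expansin, COBRA, microtubule, exocyst, coatomer and vesicle.

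The study probed naked genomic DNA of upland cotton (Gossypium hirsutum) with GhD53, a member of the D53 family of repressors in strigolactone signalling, by DNA affinity purification sequencing. This assay adds an affinity-tagged protein, expressed outside cells, to a library of DNA fragments and sequences the ones that it retains. There were 1 purified library (IP) and 1 input library, both labelled fiber, so no value here has a replicate and no difference between the libraries was tested over samples. A purification without GhD53 was not analysed here, and enrichment over input cannot tell binding by GhD53 apart from other effects of the purification. The authors deposited 2 lists of promoter peaks from the same comparison, with 756 peaks at 725 genes and 2183 peaks at 2111 genes. Pileup (fragments over the summit in the purified library), fold enrichment and q-value are the authors' own values for each peak.

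A cotton fiber is a single seed-coat cell that elongates and then thickens. Its primary wall is a network of cellulose, xyloglucan and pectin, and its secondary wall is nearly pure cellulose. Cortical microtubules guide the cellulose synthase complexes in the plasma membrane, actin cables carry vesicles, and Rab and ARF GTPases and SNARE proteins such as syntaxins route these vesicles to the membranes where wall material is delivered. DNA bound in vitro carries no nucleosomes, so a peak says nothing about whether a gene is expressed in fiber.

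The 56 peaks were low. Pileups ran from 4 to 16 fragments with a median of 5, the same median as over all 2183 longer-list peaks, and folds from 3.11 to 7.48 with a median of 3.73 (order-statistic 95% interval 3.55 to 3.73), also the median over all peaks. The background under a peak was recovered from its pileup and fold, and for 50 of the 56 it stood at the lowest value found anywhere in the list, 0.608 fragments (84.5% of all longer-list peaks did so). On that background the fold is a fixed function of the pileup. A pileup of 4 gave 3.11-fold with a q of 0.121, a pileup of 5 gave 3.73-fold with a q of 0.0309, and a pileup of 6 gave 4.35-fold with a q of 0.00539. A pileup of 7 gave 4.98-fold with a q of 0.000682, and a pileup of 8 gave 5.60-fold with a q of 6.8e-05. Equal folds among these 50 genes are therefore equal fragment counts, and their q-values follow from the pileup. Counting error alone was wide. An exact Poisson 95% interval runs from 1.09 to 10.2 for a pileup of 4 and from 4.80 to 18.4 for a pileup of 10. These intervals do not allow for the summit having been chosen as the highest point.

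At a q of 0.05 or lower stood 37 of the 56 peaks, or 66.1% (Wilson 95% interval 53.0 to 77.1), against 79.0% of all longer-list peaks. The other 19 all had a pileup of 4, which 33.9% of these peaks (22.9 to 47.0) and 19.7% of all peaks had. A q of 1e-05 or lower was reached by 4 of the 56 (7.14%), against a background of 10.4%. Of the 56 genes 13 were also in the shorter list, which is 23.2% (14.1 to 35.8) beside 34.3% of all longer-list genes. No peak had a pileup above 20. The Wilson interval for 0 of 56 runs from 0 to 6.42%, which includes the 5.31% of all peaks that were that tall. The 79.0% of all peaks lay above the interval for a q of 0.05 or lower, and the 19.7% lay below that for a pileup of 4. Both readings rest on the same 19 peaks, none of which belonged to a gene in both lists. Over all longer-list peaks on the lowest background, the share belonging to genes in both lists rose with pileup. It was 1.42% at a pileup of 4, 14.2% at 5, 40.5% at 6 and 79.7% at 7. The share in both lists is therefore not a measure separate from peak height. The 34.3% of all genes lay inside the interval for genes in both lists. None of these differences was tested.

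**Figure D1:**
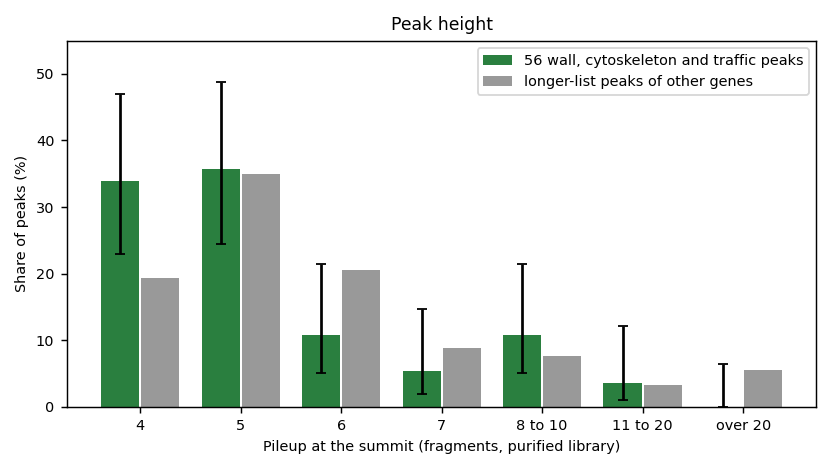
Share of peaks (%) at each pileup (fragments at the summit in the purified library) for the 56 wall, cytoskeleton and traffic peaks (green) and the 2127 longer-list peaks of other genes (grey); error bars on the green bars are Wilson 95% intervals, which cover counting error only. Pileups of 4 and 5 make up 33.9% and 35.7% of the 56 peaks, and none of the 56 is above 20.

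Among the 29 cell wall genes, the highest folds were those of a rhamnogalacturonate lyase gene, a cellulose synthase-like gene and an arabinogalactan peptide gene (7.48, 6.84 and 6.22). GH_A01G1239, a probable rhamnogalacturonate lyase B, had the highest fold of all 56 genes. Enzymes of this type cut the backbone of rhamnogalacturonan I, a branched pectin. Its peak on chromosome A01 (32700781 to 32701476, 696 bp) had a pileup of 16 in the purified library (Poisson interval 9.15 to 26.0) on a background of 1.27, which is 7.48-fold with a −log10 q of 9.23, centred 1909 bp upstream of the gene start. A further gene with the same name, GH_A12G0947 (A12, 50444764 to 50445045), had a pileup of 8 on a background of 0.764, or 5.10-fold with a −log10 q of 3.47, 1469 bp upstream. Both were in both lists. The third lyase, GH_D12G0871, lies on the D chromosome with the same number as GH_A12G0947 and had a pileup of 4 on a background of 0.608 (3.11-fold, 1884 bp upstream), in the longer list alone.

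Pectin genes made up 12 of the 29, and 4 of them were in both lists (33.3%, beside 34.3% of all longer-list genes). Besides these lyases, 5 were polygalacturonases, which hydrolyse homogalacturonan, and 4 were pectinesterases, which remove its methyl groups. Of the polygalacturonases GH_A08G1367 was in both lists (A08, 90944577 to 90944761) with a pileup of 6 on a background of 0.608 and 4.35-fold (q of 0.00539), 1772 bp upstream. GH_D09G0241 and GH_D09G0670 had 3.73-fold, 655 and 1040 bp upstream. GH_D09G0313 had 3.55-fold on a background of 0.690, 1488 bp upstream, and the exopolygalacturonase gene GH_A09G0155 had 3.11-fold, 976 bp upstream. Among the pectinesterases, GH_A11G1186 (pectinesterase/pectinesterase inhibitor 7) was in both lists. Its peak (A11, 11808501 to 11808893) had a pileup of 8 on a background of 1.02, or 4.46-fold with a −log10 q of 2.66, and lay 416 bp upstream, one of 3 among the 56 centred within 500 bp upstream.

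The remaining pectinesterase genes with a peak lay near each other on chromosome D12, though not side by side, a grouping noticed after the values were seen. GH_D12G2168 (putative pectinesterase 63), GH_D12G2171 (PPME1-like, named for a pollen enzyme of Arabidopsis) and GH_D12G2174 (pectinesterase 1-like) stand 3 gene numbers apart from each other, and their summits span 112 kb. Their pileups were 5, 5 and 4, their folds 3.73, 3.73 and 3.11, and their peaks lay 685, 1015 and 768 bp upstream. No other longer-list peak lay between them or within 100 kb on either side. All of these were in the longer list alone, and the peak of GH_D12G2174 had a q of 0.121. The gene model of GH_D12G2168 spans 25876 bp, beside 1363 bp for GH_D12G2171 and 1874 bp for GH_D12G2174. Close spacing was not rare: 146 longer-list genes (6.92%) had at least 2 other listed genes within 6 gene numbers, as did 5 of the 56 (8.93%). Genes of a tandem family can share promoter sequence, and the sequences were not analysed here.

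**Figure D2:**
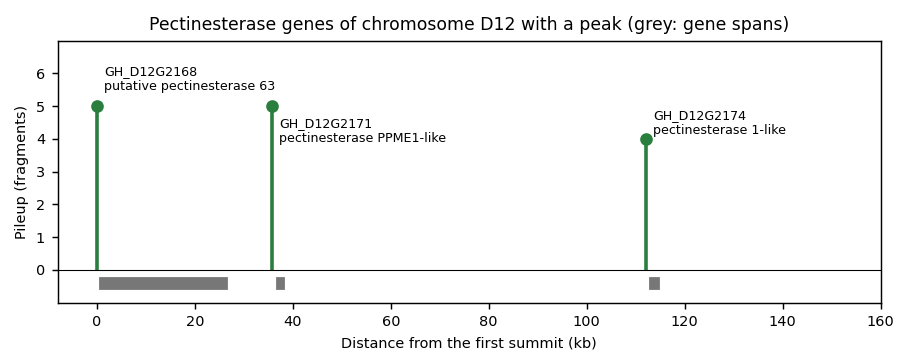
Summits of the 3 pectinesterase peaks on chromosome D12 by distance from the first summit (kb), with pileup (fragments) as height and the annotated gene spans as grey bars. The pileups are 5, 5 and 4, and the summits span 112 kb.

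Of 9 genes for cellulose, xyloglucan and glucan chains, 2 were in both lists (22.2%, Wilson interval 6.32 to 54.7, beside 34.3% of all genes). GH_D04G1673 encodes a cellulose synthase-like D4 protein, of a family needed for tip growth of pollen tubes and root hairs in Arabidopsis. It had a pileup of 10 on a background of 0.608, or 6.84-fold with a −log10 q of 6.38 (D04, 52377566 to 52377843, 839 bp upstream). GH_A04G1334 (A04, 82903633 to 82903773) has the same description apart from isoform wording and lies on the A chromosome with the same number. Whether these genes are copies of each other was not tested. GH_A04G1334 had a pileup of 4 on the same background, or 3.11-fold, 928 bp upstream, at a q of 0.121, and was in the longer list alone. The Poisson intervals of the pileups, 4.80 to 18.4 and 1.09 to 10.2, overlap. The other gene in both lists was the xyloglucan endotransglucosylase/hydrolase 28 gene GH_D02G1499, whose product cuts and rejoins xyloglucan, with a pileup of 6 on a background of 0.608 and 4.35-fold, at a q of 0.00539 (D02, 48587889 to 48588041). Its peak was centred 395 bp upstream, the closest among the 55 peaks centred upstream.

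The other genes of this kind had lower peaks. A pileup of 5 and 3.73-fold were found at GH_A07G2317, the secondary wall cellulose synthase A subunit 4, at the cellulose synthase-like E1 gene GH_A01G0885, at a second xyloglucan endotransglucosylase/hydrolase (GH_A12G0871) and at GH_D11G0086, an XLT2-like galactosyltransferase that decorates xyloglucan. A pileup of 4 and 3.11-fold were found at the cellulose synthase-like E6 gene GH_D13G1867 and at GH_D01G1697, an endoglucanase 8-like precursor. The 3 laccases, multicopper oxidases that polymerise lignin precursors, were in the longer list alone. The Wilson interval for their share in both lists runs from 0 to 56.1%, beside 34.3% of all genes. GH_D05G0903 (laccase-4-like) and GH_A10G2633 (laccase-5-like) had 3.73-fold and GH_D12G1314 (laccase-6-like) had 3.11-fold. Their peaks lay 1809, 1036 and 1705 bp upstream.

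Arabinogalactan proteins, heavily glycosylated proteins at the plasma membrane and in the wall, had 4 genes with folds from 3.11 to 6.22 and a median of 4.66, and 2 of the 4 were in both lists (Wilson interval 15 to 85%, beside 34.3% of all genes). GH_D11G2654, an arabinogalactan peptide 13-like gene, had a pileup of 9 on a background of 0.608, or 6.22-fold with a −log10 q of 5.25, in a peak of 446 bp on D11 (52853191 to 52853636), 1853 bp upstream of a gene model only 181 bp long. The fasciclin-like gene GH_A06G1305 (FLA3; A06, 74577109 to 74577278) had a pileup of 6 on a background of 0.608 and 4.35-fold, at a q of 0.00539, 1244 bp upstream, and its peak was also annotated to the promoter of the neighbour GH_A06G1306. The fasciclin-like gene GH_A07G1076 (FLA9) had a pileup of 7 and 4.98-fold, 572 bp upstream, yet was in the longer list alone. Of all longer-list peaks with a pileup of 7 on the lowest background, 79.7% belonged to genes in both lists. GH_A11G0229 (arabinogalactan peptide 16-like) and the leucine-rich repeat extensin-like gene GH_A03G1430 had a pileup of 4 and 3.11-fold.

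**Figure D3:**
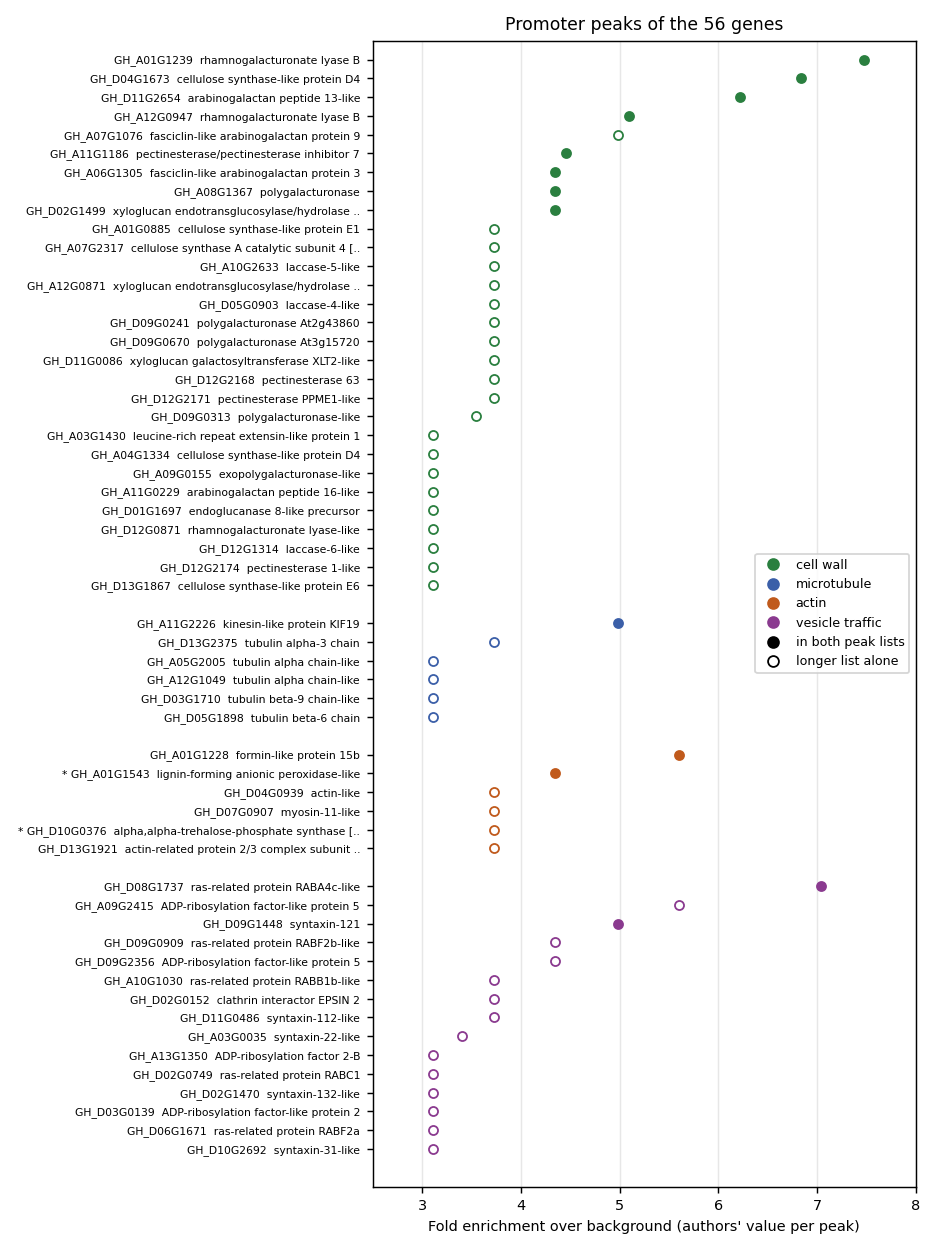
Fold enrichment (authors' value) of the promoter peak of each of the 56 genes, grouped by the words of their descriptions; filled circles are genes in both peak lists, open circles genes in the longer list alone, and asterisks mark the 2 genes whose word lies inside another word. The columns of circles at 3.11 and 3.73 are peaks with 4 and 5 fragments on the lowest background, and the rhamnogalacturonate lyase gene GH_A01G1239 is highest at 7.48.

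Microtubule genes had the lowest median, 3.11-fold over 6 genes, of which 4 had a pileup of 4 (19.7% of all peaks did). None of the 5 tubulin genes, which encode the subunits of microtubules, was in both lists. The Wilson interval for 0 of 5 runs from 0 to 43.4%, and 34.3% of all genes were in both. These 5 peaks had pileups of 4 or 5 on the lowest background. Of all longer-list peaks at those pileups on that background, 1.42% and 14.2% belonged to genes in both lists. The alpha-tubulin 3 gene GH_D13G2375 (D13, 62084440 to 62084589) had a pileup of 5 and 3.73-fold at a q of 0.0309, 1361 bp upstream. The beta-tubulin genes GH_D03G1710 (beta-9, 1580 bp upstream) and GH_D05G1898 (beta-6, 1918 bp upstream) and the alpha-tubulin-like genes GH_A05G2005 and GH_A12G1049 each had a pileup of 4 and 3.11-fold at a q of 0.121. The alpha-tubulin-like peaks lie at A05, 19198330 to 19198466, and A12, 67636266 to 67636399. These 2 genes share the same best protein hit, and both gene models span 553 bp, beside 1915 to 2905 bp for the other tubulin genes, although they lie on chromosomes of different number. Their peaks were 1198 and 691 bp upstream, so they did not lie at the same distance from the gene. The peak of GH_A12G1049 was also annotated to the promoter of GH_A12G1048. The exception in this group was GH_A11G2226, a kinesin motor gene named KIF19, with a pileup of 7 on a background of 0.608 and 4.98-fold, at a q of 0.000682 (A11, 56819354 to 56819533, 1807 bp upstream), in both lists.

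In the actin group 6 of 6 peaks had a q of 0.05 or lower (Wilson interval 61.0 to 100%), beside 79.0% of all longer-list peaks, and 2 of these 6 belong to the genes matched inside another word. Formins nucleate and elongate actin filaments, and the formin-like 15b gene GH_A01G1228 (A01, 32203526 to 32203684) had a pileup of 8 on a background of 0.608, or 5.60-fold with a −log10 q of 4.17, 1922 bp upstream, in both lists. It lies 11 gene numbers and 498 kb from the rhamnogalacturonate lyase gene GH_A01G1239. A pileup of 5 and 3.73-fold at a q of 0.0309 were found at the actin-like gene GH_D04G0939, the myosin-11-like gene GH_D07G0907 and GH_D13G1921. These peaks lay 1145 bp (D04, 23833361 to 23833519), 716 bp and 667 bp upstream. GH_D07G0907 is called a myosin by the name of its best protein hit alone. GH_D13G1921 is a subunit 5A-like gene of the Arp2/3 complex that branches actin filaments. Of the 2 genes matched inside another word, the peroxidase GH_A01G1543 had a pileup of 6 on a background of 0.608 and 4.35-fold, at a q of 0.00539, and was in both lists (A01, 75726148 to 75726327, 1572 bp upstream), and the trehalose-phosphate synthase GH_D10G0376 had 3.73-fold, 1907 bp upstream. Without them 12 of 54 genes were in both lists, beside 34.3% of all longer-list genes.

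Vesicle traffic held 15 genes, with a median of 3.73-fold. Of these, 2 were in both lists (13.3%, Wilson interval 3.74 to 37.9, beside 34.3% of all genes) and 6 had a pileup of 4 (19.7% of all peaks did). The RABA4c-like gene GH_D08G1737 had the second highest fold of all 56. Rab GTPases of the A class act between the trans-Golgi network and the plasma membrane, and RABA4 members mark the tips of growing root hairs in Arabidopsis. Its peak on D08 (54286615 to 54287270) had a pileup of 15 in the purified library (Poisson interval 8.40 to 24.7) on a background of 1.27, or 7.04-fold with a −log10 q of 8.19, 1730 bp upstream. It spanned 656 bp in the longer list and 301 bp in the shorter list with the same summit. Among the other Rab genes, the endosomal RABF2b-like gene GH_D09G0909 had 4.35-fold, 1175 bp upstream, and GH_A10G1030 (RABB1b-like) had 3.73-fold, 1711 bp upstream. GH_D02G0749 (RABC1) and GH_D06G1671 (RABF2a, also endosomal) had 3.11-fold. The peak of GH_D06G1671 was centred 1 bp inside the gene and was the only one of the 56 not centred upstream.

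Syntaxins are SNARE proteins that fuse vesicles with a target membrane. GH_D09G1448, named for syntaxin-121 of the plasma membrane, had a pileup of 7 on a background of 0.608, or 4.98-fold with a q of 0.000682, in a peak of 386 bp (D09, 41253349 to 41253734, 1446 bp upstream), and was in both lists. The 4 other syntaxin genes were in the longer list alone, so 1 of 5 was in both (20%, Wilson interval 3.62 to 62.4, beside 34.3% of all genes). GH_D11G0486 (syntaxin-112-like) had 3.73-fold, and GH_A03G0035 (syntaxin-22-like, of the route to the vacuole) had 3.40-fold on a background of 0.764. GH_D02G1470 (syntaxin-132-like) and GH_D10G2692 (syntaxin-31-like) had 3.11-fold. The peaks of GH_A03G0035 and GH_D10G2692 were also annotated to the promoters of GH_A03G0034 and GH_D10G2691.

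Among ARF and ARF-like GTPases, the ARF members recruit vesicle coats. The ADP-ribosylation factor-like 5 genes GH_A09G2415 and GH_D09G2356 share a best protein hit, lie on same-numbered A and D chromosomes and were the only A and D genes among the 56 with identical descriptions. GH_A09G2415 (A09, 80810071 to 80810276) had a pileup of 8 and 5.60-fold, and GH_D09G2356 (D09, 49829946 to 49830111) had a pileup of 6 and 4.35-fold, both on a background of 0.608, at q-values of 6.8e-05 and 0.00539. Their peaks lay 1231 and 1479 bp upstream. The exact Poisson intervals of these pileups, 3.45 to 15.8 and 2.20 to 13.1, overlap. Neither was in the shorter list, although 91.2% of all longer-list peaks with a pileup of 8 on the lowest background belonged to genes in both lists. GH_A13G1350 (ADP-ribosylation factor 2-B) and GH_D03G0139 (ADP-ribosylation factor-like 2) had 3.11-fold, and the clathrin-binding EPSIN 2 gene GH_D02G0152 had 3.73-fold.

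The 13 genes in both lists had the same summit in each list. In the longer list their peaks had a median length of 278 bp (153 to 696 bp), beside 162 bp (132 to 261 bp) for the 43 genes in the longer list alone. Over all longer-list peaks the medians were 215 and 158 bp. The lists were made from the same libraries, so these lengths describe how the lists differ. Of the 13, 8 were on A chromosomes (61.5%, Wilson interval 35.5 to 82.3), beside 51.0% of the 722 shorter-list genes on chromosomes. A chromosomes held 23 of all 56 genes (41.1%, 29.2 to 54.1), beside 49.6% of longer-list genes on chromosomes. Both intervals include the share over all genes. Of the vesicle traffic genes 4 were on A and 11 on D chromosomes, an A share of 26.7%. Its interval, 10.9 to 52.0, also includes the 49.6% of all longer-list genes. Cell wall genes were about even (14 on A and 15 on D).

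Of the 55 peaks centred upstream, 19 (34.5%, Wilson interval 23.4 to 47.7) lay within 1000 bp of the gene start, beside 39.2% of all longer-list peaks centred within 2000 bp upstream. The nearest 500 bp held 3 peaks (5.45%, 1.87 to 14.9), beside 13.8% overall. Within 1000 bp lay 13 of the 29 cell wall peaks (44.8%, 28.4 to 62.5) and 3 of the 14 upstream vesicle traffic peaks (21.4%, 7.57 to 47.6). Microtubule peaks had 1 of 6 there and actin-group peaks 2 of 6. These intervals overlap, and the differences were not tested.

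**Figure D4:**
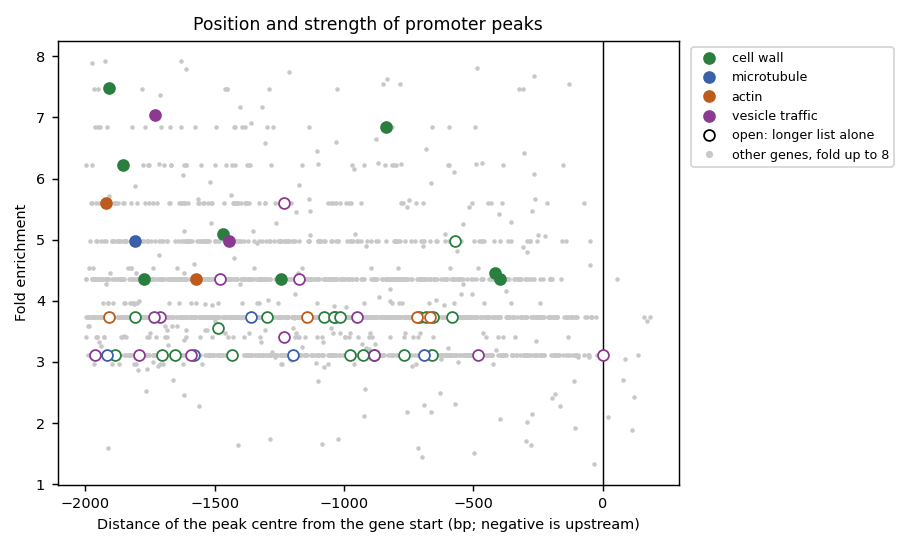
Fold enrichment against the distance of the peak centre from the gene start (bp, negative is upstream) for the 56 genes (coloured by group, open where in the longer list alone) and for other longer-list genes with a fold up to 8 and a centre between 2000 bp upstream and 200 bp downstream (grey dots). The highest folds, 7.48, 7.04, 6.84 and 6.22, are those of GH_A01G1239 (rhamnogalacturonate lyase), GH_D08G1737 (RABA4c-like), GH_D04G1673 (cellulose synthase-like D4) and GH_D11G2654 (arabinogalactan peptide 13-like). Their peaks lie 1909, 1730, 839 and 1853 bp upstream. The rows of points at equal fold are peaks with equal pileup on the lowest background.

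Genes outside the 56 were counted by further lists of pathway words, which also catch proteins of another kind. In the wall list (such as galactosyltransferase, trichome birefringence, beta-galactosidase and peroxidase) 8 of 24 genes (33.3%) were in both lists, with a median of 3.73-fold, beside 34.3% of all genes. The 24 include 3 galactinol-sucrose galactosyltransferase genes of raffinose synthesis (GH_A07G0703, GH_A13G1527 and GH_D13G1472) and a glutathione peroxidase gene, GH_A09G1846. Without these 4, a step added after the values were seen, 6 of 20 (30.0%, Wilson interval 14.5 to 51.9) were in both lists. The highest were the beta-1,3-galactosyltransferase 14 gene GH_A04G0434 (5.60-fold), the raffinose synthesis gene GH_A07G0703 (4.98-fold) and the beta-galactosidase 5 gene GH_D01G1164 (4.98-fold). In the traffic list 4 of 14 genes (28.6%) were in both lists, also with a median of 3.73-fold. The highest folds were those of the annexin-like RJ4 gene GH_D10G2102 (6.22-fold, both lists) and of GH_D05G2295, annotated as fiber annexin (4.98-fold, longer list alone). Next came 4 genes tied at 4.35-fold with a pileup of 6: GH_A05G1537, a Sec61 alpha-like gene of the protein channel of the endoplasmic reticulum, the rho GTPase-activating gacII-like gene GH_A10G0317 (both in both lists), the annexin D5-like gene GH_A05G3169 and the synaptotagmin-5-like gene GH_A06G0573 (both in the longer list alone). Annexins bind calcium and membrane phospholipids. In the cytoskeleton list 1 gene had a peak, the dynamin-related 1E-like GH_D12G2334 at 3.11-fold.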

How the data were processed

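Per the labels' protocols, tagged protein was made in vitro and combined with a library of extracted genomic DNA. BWA, ChIPseeker and deepTools 2.5.4 appear in the submitters' processing notes. Which program called the peaks, on which genome build and at which threshold, is not given in the sources used here. Coordinates are those of the files. Per the file headers, the authors deposited for each peak a pileup (a coverage signal), a fold enrichment (a ratio), a −log10 p-value and a −log10 q-value. Peak length and the distance of the centre to the gene start are also deposited. Sequencing depth is known only through the pileups, as no library totals were analysed here.

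Words were matched in any letter case anywhere in the description. The members, groups and lists were chosen with earlier results of these data known. The background was computed as (pileup + 1) / fold − 1. For all 56 peaks the deposited −log10 p matched a Poisson tail on that background (tolerance 0.01). Shares have Wilson 95% intervals and pileups exact Poisson 95% intervals, both for counting error only. No test was run, as each group had 1 library. Of the 56 best hits, 23 matched a RefSeq protein accession, none with a symbol beyond a locus number. Every member is named. Full values were given for members in both lists, the 3 highest folds per group and same-description pairs. Of other pathway genes the 3 highest folds per list were named, with ties and with genes of another kind. Alternatives were other word matching, other peak filters, other overlap rules and the shorter list. Python 3.11.15, pandas 2.3.3 and scipy 1.17.1 were used, and the procedures were tested on simulated data.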

Additional observations from a re-analysis of the deposited data

How the results depend on the processing

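Of 53 values recomputed under alternatives, 43 were counted as close to the reported one and 10 as moved. The line between them was loose. A share within 1000 bp upstream of 25% with a q of 1e-05 or lower, in place of 34.5%, was counted as close. The median fold of 3.73 and the median pileup of 5 held under other word matching, with peaks of 1 promoter alone, with a q of 0.05 or lower and over genes. With a q of 1e-05 or lower 4 genes remain, with a median fold of 6.94 and a median pileup of 12.5, and 25% of them on A chromosomes. All 4 are in both lists. So were the genes of 100% of all longer-list peaks with a pileup of 9 or 10 on the lowest background. In the shorter list 13 peaks have a q of 0.05 or lower, the median fold is 4.98 and the median pileup 8, 23.1% are centred within 1000 bp upstream and 61.5% are on A chromosomes. A stricter limit on q keeps taller peaks by construction. The shorter list has a lowest −log10 q of 1.31 and a lowest pileup of 5, beside 0.917 and 4 in the longer list. Every peak in the shorter list therefore has a q of 0.05 or lower, and none has a pileup of 4. No source here describes how the shorter list was made. For its other values, and for chromosomes, the cause was not tested. With isoform and "-like" wording removed, 2 A and D pairs share a description in place of 1, the added pair being the cellulose synthase-like D4 genes. Matching words only at a word's start leaves 47 genes, 10 of them in both lists. Requiring a reciprocal overlap of 50% or centres within 100 bp gives 12 shared genes. The alternatives without the 2 genes matched inside another word, and without proteins of another kind in the wall list, were chosen after seeing the data. No paired analysis was possible because each fraction had 1 library. Pileups of 4 to 6 limit what any single peak of this kind can show.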

Other observations

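Wall and membrane genes that the chosen words miss also had peaks, found after the data were examined. Genes described as xylosyltransferases were 5, and 1 of them was in both lists, beside 34.3% of all longer-list genes. They include the beta-1,4-xylosyltransferase genes GH_D01G1300 (IRX9H, 4.98-fold), GH_D12G2140 (IRX10L, 4.35-fold, both lists), GH_D06G0278 (IRX9H, 3.73-fold) and GH_A08G0454 (IRX14, 3.73-fold), whose Arabidopsis namesakes build the xylan backbone. The fifth, GH_D01G0837, is a beta-(1,2)-xylosyltransferase, which acts on glycoprotein glycans, at 4.35-fold. Phosphatidylinositol-3-phosphate 5-kinases, which make a lipid of late endosomes, had 4 genes: GH_D09G0897 (4.35-fold), GH_A05G0370, GH_A09G0943 and GH_D01G1741 (3.73-fold each), the last in both lists. The ROOT HAIR DEFECTIVE 3-like genes GH_A02G1370 and GH_D06G2229, of a GTPase that shapes the endoplasmic reticulum, had 4.35-fold and 3.11-fold.

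By the authors' gene ontology column, 33 longer-list genes carried the term cell wall organization or biogenesis, and 7 of them were among the 56. The cytoskeleton term was carried by 22 genes (3 of the 56) and the vesicle-mediated transport term by 23 (5 of the 56). The median fold over each set was 3.73. Of those among the 56, 1 gene of each term was in both lists. Of those outside the 56, 7 of 26 genes of the wall term, 4 of 19 of the cytoskeleton term and 5 of 18 of the vesicle term were in both lists, beside 34.3% of all longer-list genes. Among the genes outside the 56, GH_A01G0037, an SH3 domain-containing 2-like gene with cell wall and vesicle terms, had 5.60-fold, GH_D11G3417 (WAVE-DAMPENED 2-like), of a family of microtubule-binding proteins, had 5.60-fold, and GH_D02G2357 (cyclase-associated protein 1-like), of an actin-binding family, had 4.35-fold, all in both lists. These genes were chosen after their values were seen. Of the 56 peaks, each of 1 gene, 32 belonged to genes with any gene ontology term (57.1%), beside 43.6% of all longer-list peaks. Genes without an informative description could not be among the 56, so these shares are not like for like.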
